A study of Mus musculus with 12 samples.

Results

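Tumors from mice given MLN0128 were compared with normal liver to see what stayed tumor-like under the drug and which liver genes stayed lost or came back. The members are 6 of the 12 libraries of the series, chosen by their labels: 3 from MLN0128-treated tumors and 3 from normal livers. The normal livers came from wild-type C57BL/6 mice, which received neither plasmids nor drug as far as the labels tell. The tumors arose after hydrodynamic tail vein injection, in which plasmids are forced into hepatocytes, of c-MYC, MCL1 and Cre into mice with floxed Rictor and Tsc2, so that the transfected cells carry both oncogenes and lose both floxed genes (RictorKOTsc2KO). Constitutive promoters drive the oncogenes, and Cre acts only in cells that took up its plasmid. MLN0128, which blocks the mTOR kinase in both of its complexes, was given by gavage at 1 mg/kg/day. The labels put the dosing at 6 days a week for 3 weeks from day 6 after injection and the sacrifice at 3.7 weeks after injection. The account of the sequenced tumors elsewhere gives a treatment of only a few days, so how long these tumors had been under the drug is uncertain. The 3 tumors given vehicle in the same way, of the same genotype, served to tell a change under the drug from the tumor state itself. Normal liver thus differs from the treated tumors in injection, floxed alleles, gavage and drug at once, and these cannot be told apart by this comparison. Rictor and Tsc2 are lost in the transfected hepatocytes only, and the whole-gene values do not single out the floxed exons, so they do not check the genotype. Rictor was at 2.21, 1.65 and 1.82 FPKM with MLN0128 and 1.99, 1.65 and 2.57 in normal liver, and Tsc2 at 3.96, 2.81 and 3.40 against 5.21, 5.32 and 4.50.

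Hepatocytes make most plasma proteins, clear drugs and ammonia, and burn or export fat, under the control of a small set of transcription factors such as HNF4A and C/EBP alpha. Liver tumors often lose these products and re-express genes of the fetal liver such as Afp and H19. The mTOR kinase links nutrients to protein synthesis and to enzymes that make serine, one-carbon units and lipids, in part through the transcription factors ATF4 and SREBP.

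RNA was measured as FPKM, the number of fragments per kilobase of transcript scaled to library size, and compared as log2(FPKM + 1). The tables list 17007 genes, and the 13881 autosomal ones that reached 0.5 FPKM in 3 or more of the 12 libraries entered the tests. Reads recovered from the FPKM numbered 17522069 to 22640626 with MLN0128 and 17830429 to 18605935 in normal liver. In normal liver 19.6% to 22.5% of reads fell on the top 10 genes of a library, and with MLN0128 6.90% to 8.93% did. The FPKM carry a scaling that offsets this difference, and without it the median log2 difference of all genes between MLN0128 and normal liver rises by 0.67, so that every difference below is relative to the bulk of genes. MLN0128 replicates 1 and 2 held the X-linked Xist RNA and listed 0 on Ddx3y, Eif2s3y, Kdm5d and Uty of the Y chromosome, whereas replicate 3, every normal liver and every other tumor showed the reverse. Each comparison with MLN0128 therefore also sets mice of unlike sex chromosomes side by side, and list counts against liver with replicate 3 as the only MLN0128 library are given with the lists. Because the tissue is bulk, fewer cells of a type and less RNA per cell cannot be told apart.

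Under MLN0128 the tumors remained far from liver. In limma's treat test, which asks whether a difference exceeds 1.5-fold, and at an adjusted p under 0.05, 2377 genes were higher than in normal liver, 17.1% of those tested, and 2789 were lower, 20.1%. Higher genes thus made up 46.0% of the calls, and 83.7% without the authors' scaling. Vehicle-treated tumors, compared with the same 3 livers, gave 2203 higher (15.9%) and 2323 lower (16.7%). The median log2 difference over all genes was 0.06 in both comparisons. With replicate 3 as the only MLN0128 library, 1937 genes were higher and 2453 lower, of which 1782 and 2316 were among those above. Lower genes made up the largest share among those that liver expresses most. Of 77 genes at or above 1000 FPKM in normal liver, 72 were lower with MLN0128. The median of the 77 was 7.35% of the liver level with MLN0128 and 9.50% with vehicle. Of the 653 genes between 100 and 1000 FPKM, 474 were lower and 29 higher, at a median of 26.3% of liver. Most lower genes lay at more modest levels: 1397 of 3451 genes between 10 and 100 FPKM (40.5%) and 837 of 6436 between 1 and 10 (13%). These bins were set by the level in liver itself and describe where the loss lies.

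**Figure D1:**
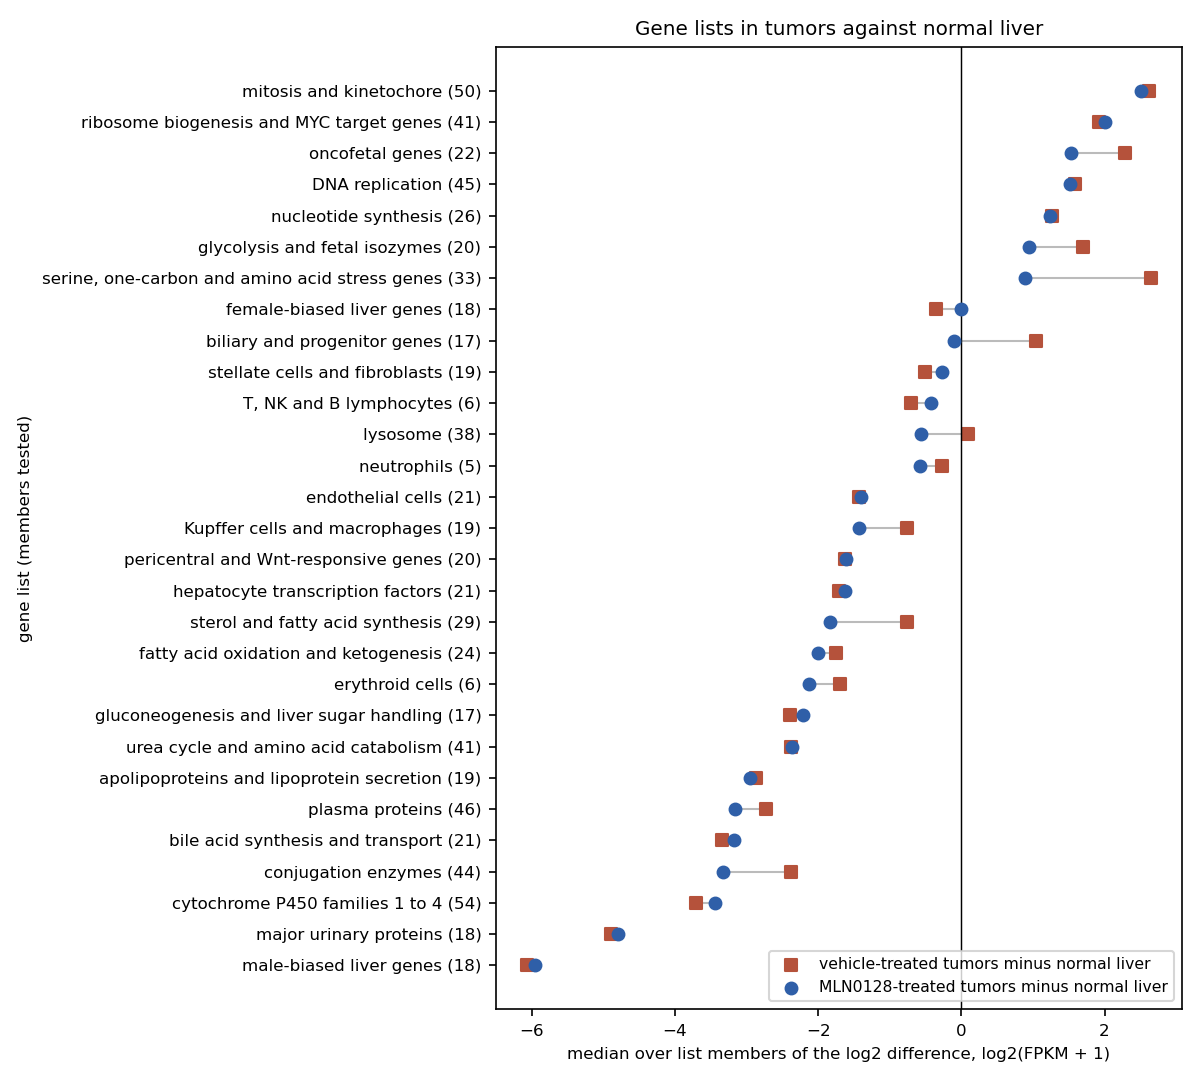
Median log2 difference from normal liver, in log2(FPKM + 1), of the tested members of each gene list (number in brackets), with blue circles for MLN0128-treated and red squares for vehicle-treated tumors. Liver lists lie left of 0 in both, with medians down to -5.96 for male-biased genes under MLN0128. The serine, one-carbon and amino acid stress list lies at 0.89 with MLN0128 and 2.65 with vehicle, and the biliary list at -0.10 and 1.04.

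Secreted proteins of the hepatocyte stayed lost. Albumin (Alb), the main plasma protein, lies at 90460897 to 90476602 of chromosome 5 in GRCm38. Its FPKM were 57200, 66000 and 76600 in normal liver, 1780, 953 and 1840 with vehicle and 878, 1110 and 482 with MLN0128. The MLN0128 tumors kept 1.24% of the liver level, a log2 difference of -6.41 (SE 0.578, limma's treat adjusted p = 4.41e-06), and overlapped with vehicle. Of 46 plasma protein genes tested, 44 were lower than in liver with MLN0128 (median -3.17), and so were all 46 with vehicle (median -2.72). The exceptions were Itih3 and C4b. Fetuin A (Ahsg), a secreted glycoprotein, kept more than most, at 1290, 1810 and 925 FPKM against 6440, 9080 and 6240 in liver (log2 difference -2.47). Transthyretin (Ttr), the carrier of thyroxine and retinol-binding protein, was at 542, 1010 and 332 against 7310, 8420 and 8120. Its vehicle values of 1660, 1120 and 1730 lay above all 3 MLN0128 values. Of 19 apolipoprotein and lipoprotein secretion genes, 15 were lower with MLN0128 (median -2.95), among them Apoa2, Apoe and Apoa1, at -3.98, -3.16 and -3.51. Replicate 3 as the only MLN0128 library gave 46 and 15 lower genes in these lists.

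Drug-clearing enzymes had the lowest medians of the metabolic lists. Of 54 cytochrome P450 genes of families 1 to 4, 42 were lower with MLN0128 and 1, Cyp4f16, was higher, with a median of -3.44, against 42 lower with vehicle (median -3.70). At a median, the 48 members with at least 1 FPKM in liver kept 3.59% of the liver level with MLN0128 and 3.33% with vehicle. Cyp2e1, the ethanol-inducible P450 of pericentral hepatocytes, was at 4220, 5550 and 4240 FPKM in liver, 10.2, 1.56 and 28.6 with vehicle and 87.4, 74.6 and 44.3 with MLN0128. All 3 drug values lay above all 3 vehicle values, yet they were 1.47% of the liver mean. Cyp3a11, the main steroid and drug hydroxylase of mouse liver, followed the same order, at 1660, 2040 and 2370, then 14.8, 6.79 and 22.1, then 46.7, 67.6 and 25.8. Neither rise over vehicle passed the treat test (log2 differences 2.83 and 1.65, limma's treat adjusted p = 0.101 and 0.538). Among the 54, 13 had all 3 MLN0128 libraries above all 3 vehicle libraries, which holds for 22.2% of all genes tested, and 6 had all below, which holds for 23.4%. The mean level of the P450 list, in log2(FPKM + 1), overlapped between the drug (2.51, 2.59 and 1.87) and vehicle (2.01, 1.60 and 2.30). Of the conjugation enzymes, which add glucuronide, glutathione or sulfate groups, 33 of 44 were lower than liver with MLN0128 (median -3.33) and 31 with vehicle (median -2.38). Of these 44, 17 had all 3 MLN0128 libraries below all 3 vehicle libraries, 5 had all above, and 4 were lower than vehicle by the treat test. With replicate 3 as the only MLN0128 library, 42 P450 and 34 conjugation genes were lower than liver. Gstm2, a glutathione transferase, was at 38.7, 42.6 and 28.3 FPKM in liver, 12.9, 5.11 and 19.9 with vehicle and 1.66, 1.45 and 1.07 with MLN0128, lower than both.

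Amino acid, bile acid, sugar and fat metabolism were all below liver. Urea cycle and amino acid catabolism had 36 of 41 genes lower (median -2.37), bile acid synthesis and transport 20 of 21 (median -3.17), gluconeogenesis and liver sugar handling 13 of 17 (median -2.21), and fatty acid oxidation and ketogenesis 19 of 24 (median -2.0). With vehicle these counts were 32, 21, 13 and 19, and with replicate 3 as the only MLN0128 library 38, 21, 15 and 20. Pck1, the rate-limiting enzyme of gluconeogenesis, stood at 1070, 1290 and 1230 FPKM in liver and at 34.6, 17.7 and 10.5 with MLN0128, which overlapped with 11, 8.02 and 29.7 in vehicle. Fabp1, the fatty acid binding protein of liver, went from 21000, 17900 and 16700 to 226, 539 and 244. Of the bile acid genes, Abcg8, a sterol exporter of the canaliculus, came closest to liver, at 40.7, 51.5 and 12.6 against 57.6, 83.5 and 67.2, and did not pass the test. Its lowest drug value came from MLN0128 replicate 3, which was the lowest of its group in most liver lists. Without the authors' scaling between libraries the lower counts in these 4 lists were 22, 16, 8 and 9, and all 4 medians stayed below 0, the highest at -0.97.

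The largest single losses were products of adult male liver. All 18 male-biased liver genes were lower, with a median of -5.96, and so were 17 of 18 major urinary protein genes, secreted pheromone carriers. The same held with vehicle, in libraries that all express the Y-linked genes: 18 and 17 were lower, and the male-biased median was -6.06. With replicate 3 as the only MLN0128 library, 17 and 12 were lower, with a male-biased median of -5.98. Of the 18 Mup genes, 9 were listed at 0 in all vehicle libraries. Hsd3b5 and Mup17 reached the filter of 0.5 FPKM only with the normal livers, and other members near 0 in tumors may have done so. For such genes a lower value was fixed by the filter, so these counts describe the loss and do not test it. Mup3 went from 21200, 11600 and 20900 FPKM in liver to 32.6, 81.3 and 91.9 with MLN0128, above the 13.1, 1.95 and 18.8 of vehicle. This is 0.383% of the liver level. Hsd3b5, a steroid dehydrogenase of male liver, went from 658, 477 and 438 to 0.0227, 0 and 0.944. Mup7, Mup21, Mup17, Cyp4a12a, Sult2a8 and Ces3b completed the 8 largest falls, at log2 differences of -9.27 to -7.39. Genes of the Mup, Sult2a, Ugt, Cyp and Ces3 families have close copies that share reads, so the values of single members are uncertain.

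**Figure D2:**
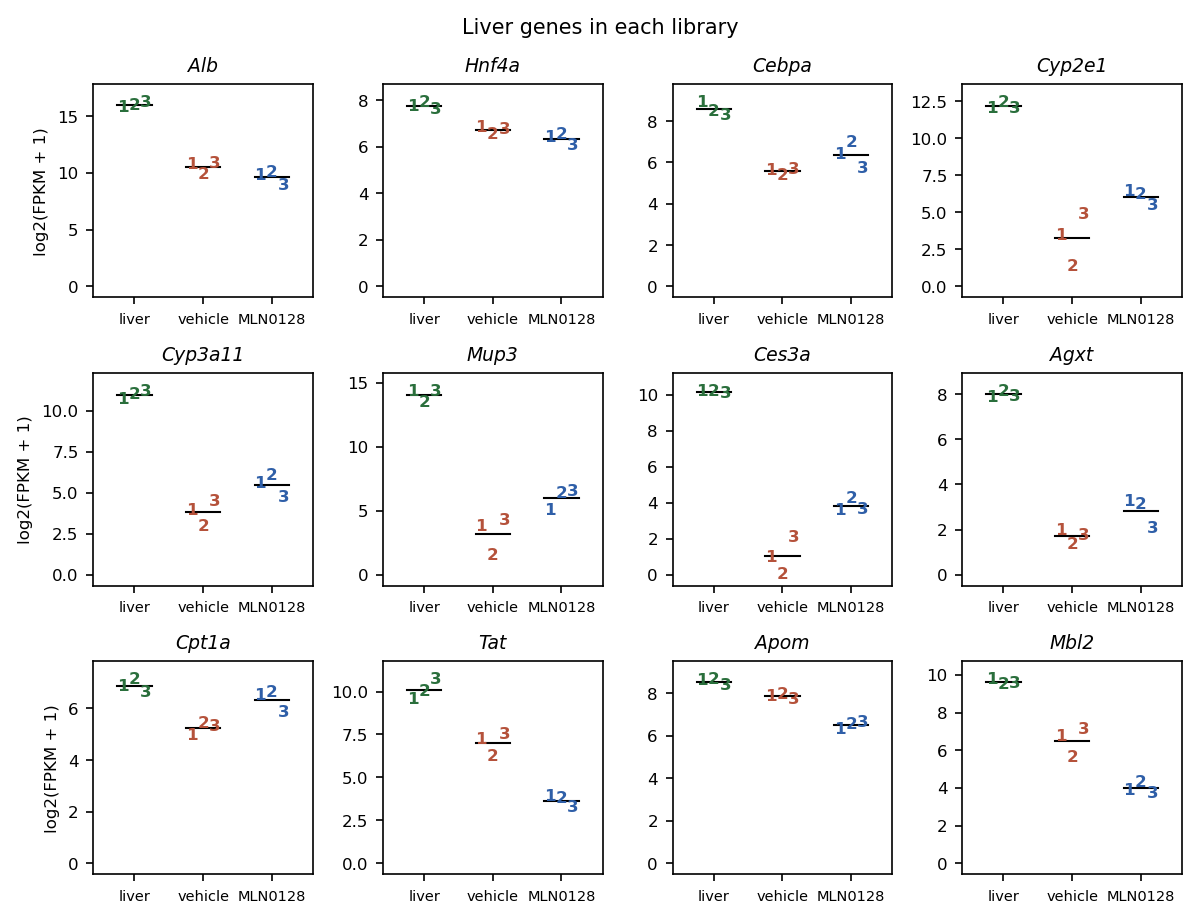
Level of 12 liver genes in each library as log2(FPKM + 1), with digits for the replicate number and bars for the group mean of 3. Alb lies near 16 in liver and near 10 in both tumor groups. Cyp2e1, Mup3 and Ces3a lie higher with MLN0128 than with vehicle but far under liver, and Tat, Apom and Mbl2 lie lower with MLN0128 than with vehicle.

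The transcription factors of hepatocytes differed less from liver than the lists above. Of 21 tested, 17 were lower with MLN0128 (median -1.63) and 16 with vehicle (median -1.70), and only 4 were lower without the authors' scaling, where the median was -0.62. In replicate 3 alone 16 were lower. Hnf4a, the central nuclear receptor of hepatocyte identity, kept 37.2% of its liver level, at 83.9, 93.2 and 66.5 FPKM against 217, 239 and 199. Cebpa was at 477, 363 and 309 in liver, 48.7, 40.9 and 50.5 with vehicle and 82.9, 126 and 51.9 with MLN0128, where all 3 drug values exceeded vehicle by a margin that was slim in replicate 3. Dbp, a clock-driven activator of liver genes, was at 47.4, 56.4 and 32.6, then 1.37, 1.09 and 1.48, then 4.28, 5.08 and 3.28. Cebpa and Dbp did not pass the treat test against vehicle (log2 differences 0.80 and 1.16, limma's treat adjusted p = 1 and 0.225), although both passed limma's moderated test with a fold change above 1.5. Of the 21, 6 (28.6%) had all MLN0128 libraries above all vehicle libraries, near the 22.2% of all genes, and 1, the pioneer factor Foxa1, had all below.

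Few liver genes passed the treat test as higher than vehicle. Against vehicle, 64 genes were higher with MLN0128, 0.461% of those tested, and 224 were lower, 1.61%. A moderated test with a fold change above 1.5 gave 1129 higher and 1540 lower, and voom on recovered reads gave 272 and 442. The number thus depends on the test, and a gene not called may still have risen. The treat counts also moved with single libraries. They were 15 and 93 without MLN0128 replicate 1, 37 and 159 without replicate 2, and 122 and 260 without replicate 3. They were 22 and 124, 42 and 221, and 23 and 105 without vehicle replicates 1, 2 and 3, and 3 and 21 with replicate 3 as the only MLN0128 library. Of the 64, only 8 were at least 1 log2 unit below liver in vehicle: Ces3a, Gm32063, Bmyc, Tcp11l2, Klhl24, Ldlrad4, Kiz and Hemk1. None of the 8 belongs to a gene list used here. The other 56 moved mostly away from liver: with MLN0128, 51 were higher than liver and 5 were not called. Their median log2 difference from liver was 0.41 in vehicle and 1.77 with MLN0128. As they were chosen for a rise over vehicle without lying far under liver, this follows largely from the choice. Ces3a, a carboxylesterase, was at 1170, 1180 and 1100 FPKM in liver, 0.977, 0.0361 and 3.33 with vehicle and 10.9, 18.4 and 11.6 with MLN0128. That is a log2 difference of 2.79 from vehicle (SE 0.441, limma's treat adjusted p = 0.0172) and 1.19% of the liver level. The other 7 were modest in liver, at 1.01 to 20.5 FPKM, and came close to it: Kiz, a centrosomal protein, was at 10.8, 12 and 11.2 with MLN0128, 4.49, 4.89 and 4.58 with vehicle and 11.8, 14.3 and 12.8 in liver. Klhl24, an adaptor of a ubiquitin ligase, was at 15, 16.7 and 9.40, then 4.35, 3.67 and 5.77, then 20.5, 18.1 and 19.8. Over the 8 genes the drug mean covered a median of 83.1% of the log2 gap between vehicle and liver. All 8 lost the call with replicate 3 as the only MLN0128 library, where limma's treat adjusted p ran from 0.0737 for Gm32063 to 0.998 for Klhl24. Cpt1a, the gate of mitochondrial fatty acid oxidation, had a like pattern without passing the treat test, at 90.8, 99.4 and 56.6 with MLN0128, 30.5, 41.8 and 39.3 with vehicle and 117, 138 and 97.4 in liver (log2 difference from vehicle 1.1, limma's treat adjusted p = 0.558).

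Other genes were lowered by the drug without having been raised by 1 log2 unit or more in the tumor, and smaller rises fall in this class. Of the 224 genes lower than vehicle, 89 were not at least 1 log2 unit above liver in vehicle, with median log2 differences from liver of -0.26 in vehicle and -1.86 with MLN0128. With MLN0128, 75 of the 89 were lower than liver and 14 were not called, beside 20.1% of all genes tested that were lower. The class holds genes near or under liver in vehicle that then fell, so a place under liver follows largely from the choice. Tat, the liver enzyme that opens tyrosine breakdown, was at 764, 1040 and 1670 FPKM in liver, 150, 75.4 and 185 with vehicle and 14.0, 12.7 and 8.62 with MLN0128. Its log2 difference from vehicle was -3.36 (SE 0.468, limma's treat adjusted p = 0.00707). Mbl2, a lectin of the complement system, was at 865, 737 and 753, then 108, 48.9 and 137, then 13.8, 18.7 and 12.5, and the pentraxin Apcs at 272, 273 and 168, then 75.7, 81.8 and 52.7, then 8.12, 13.2 and 10.6. For all 3 genes the groups formed separate steps with no overlap. Apom, the carrier of sphingosine 1-phosphate in HDL, was not called with vehicle, at 237, 251 and 214 against 391, 404 and 335 in liver, and stood at 79.6, 94.2 and 100 with MLN0128. Cth, which makes cysteine, was at 31.1, 65.4 and 29.8 with MLN0128 against 252, 218 and 328 in liver and 180, 212 and 139 with vehicle. Of 29 sterol and fatty acid synthesis genes, 20 were lower than liver with MLN0128 (median -1.83), 16 with replicate 3 as the only MLN0128 library, and 12 with vehicle (median -0.76). Directly against vehicle only 2 of the 29, Msmo1 and Sqle, were lower (median -0.59). Msmo1, a sterol demethylase, was at 129, 41.2 and 78.1 in liver, 10.4, 8.98 and 9.61 with vehicle and 0.923, 1.32 and 1.29 with MLN0128. Scd2, the desaturase isozyme little expressed in adult liver, was the 1 gene of the list that was higher, at 79.2, 121 and 63.5 against 1.17, 1.71 and 1.44.

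Much of the tumor program stayed far above liver under MLN0128. The 8 largest rises over liver were those of H19, Lgals2, Psrc1, Isyna1, Phgdh, Peg10, Tff3 and Afp. Psrc1 and Peg10 lay under 0.5 FPKM in every liver and reached the filter only with tumors, and other genes near 0 in liver may have done so. For such genes a higher value than in liver was fixed by the filter, so their ranks and counts describe the tumor state and do not test it. H19, an imprinted fetal RNA, was at 3470, 6270 and 3010 FPKM with MLN0128, 5360, 4840 and 3880 with vehicle and 1.39, 1.14 and 0.0390 in liver, a log2 difference from liver of 11.17 (SE 0.349, limma's treat adjusted p = 1.25e-09). Igf2, its imprinted neighbor on chromosome 7, was at 51.0, 67.9 and 33.1 with MLN0128 and at most 0.0162 in liver. Psrc1, a spindle protein, was at 91.1, 101 and 80.2 with MLN0128, above the 46.9, 60.4 and 41.4 of vehicle, and at most 0.162 in liver. Isyna1, which makes inositol phosphate, showed the same order at 363, 300 and 328, then 245, 225 and 260, then 2.40, 4.24 and 2.91. Of 22 oncofetal genes, 18 had a lower mean log2 level with MLN0128 than with vehicle and 4 a higher one (median difference -0.68). By the treat test 2 were lower than vehicle and 0 higher. In 11 of the 22, every drug value was under every vehicle value, beside 23.4% of all genes tested, and the reverse held in 0. Against liver, 12 of the 22 were higher with MLN0128 (median 1.53), and 14 were higher with vehicle (median 2.28). In replicate 3 alone 12 were higher.

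Cell division genes stayed high. Of 50 mitosis and kinetochore genes 46 were higher than liver with MLN0128 and 47 with vehicle (medians 2.51 and 2.63), the exceptions being Bub3, Cenpk and Cenpm, which were not called, and Pttg1, which was lower. Only 11 of the 50 had a mean of at least 1 FPKM in liver, so members near 0 there share the limit set by the filter. Mki67, the proliferation marker, was at 10.6, 6.57 and 21.6 FPKM with MLN0128, 14.3, 12.5 and 11.9 with vehicle and 0.166, 1.01 and 0.267 in liver. Cdc20, an activator of the anaphase-promoting complex, was at 44.9, 27.3 and 113, then 56.8, 62.5 and 57.1, then 0.496, 2.18 and 0.154. For both genes replicate 3 lay above every vehicle tumor and replicates 1 and 2 below. Cenpm, a centromere protein, was at 2.26, 1.94 and 4.24 with MLN0128 against 1.32, 1.96 and 1.66 in liver and 6.09, 3.78 and 7.01 with vehicle. Its drug values overlapped with both groups, and its difference from liver did not pass (log2 difference 0.49, limma's treat adjusted p = 1). Of 45 DNA replication genes, 29 were higher than liver with MLN0128 and 37 with vehicle (medians 1.52 and 1.59). Rrm2, a subunit of ribonucleotide reductase, was at 39.8, 22.3 and 57.5 with MLN0128 against 1.00, 2.85 and 1.45 in liver. In replicate 3 alone, 46 mitosis and 31 DNA replication genes were higher than liver.

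Ribosome genes stayed high too. Of 41 ribosome biogenesis and MYC target genes, 36 were higher than liver in each tumor group, with medians of 2.01 with MLN0128 and 1.92 with vehicle, and 34 were with replicate 3 as the only MLN0128 library. Npm1, a nucleolar histone chaperone, was at 821, 835 and 790 FPKM with MLN0128, 566, 773 and 506 with vehicle and 100, 112 and 128 in liver. Polr1a, the largest subunit of RNA polymerase I, was at 24.8, 21.5 and 16.0, then 9.87, 12.5 and 11.9, then 1.69, 2.63 and 1.92. For both genes all drug values lay above all vehicle values, without passing the treat test. Eif4e, the cap-binding protein, behaved otherwise: it was at 15.9, 15 and 16.5 with MLN0128, 25.5, 28.6 and 23.4 with vehicle and 13.3, 13.9 and 13.0 in liver, and neither difference passed. Of 20 genes of glycolysis and fetal isozymes, 9 were higher than liver and 3 lower with MLN0128 (median 0.95), against 12 and 2 with vehicle (median 1.70), and 8 and 3 with replicate 3 as the only MLN0128 library. Against vehicle 1 of the 20 was lower by the treat test, beside 1.61% of all genes tested. In 10 of the 20, each drug value was under each vehicle value, beside 23.4% of all genes tested, and the reverse held in 1. The fetal isozyme Pkm stayed at 229, 145 and 193 against 3.15, 4.15 and 3.91 in liver. The glucose transporter Slc2a1 fell to 2.47, 2.37 and 4.21, below the 4.92, 4.55 and 4.76 of liver, from 12.6, 29.9 and 17.9 with vehicle (log2 difference from vehicle -2.34, limma's treat adjusted p = 0.0121). Gapdh, at 414, 344 and 390, overlapped with its liver values of 357, 408 and 374, and Ldha, at 401, 352 and 366 against 337, 350 and 254, did not pass.

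**Figure D3:**
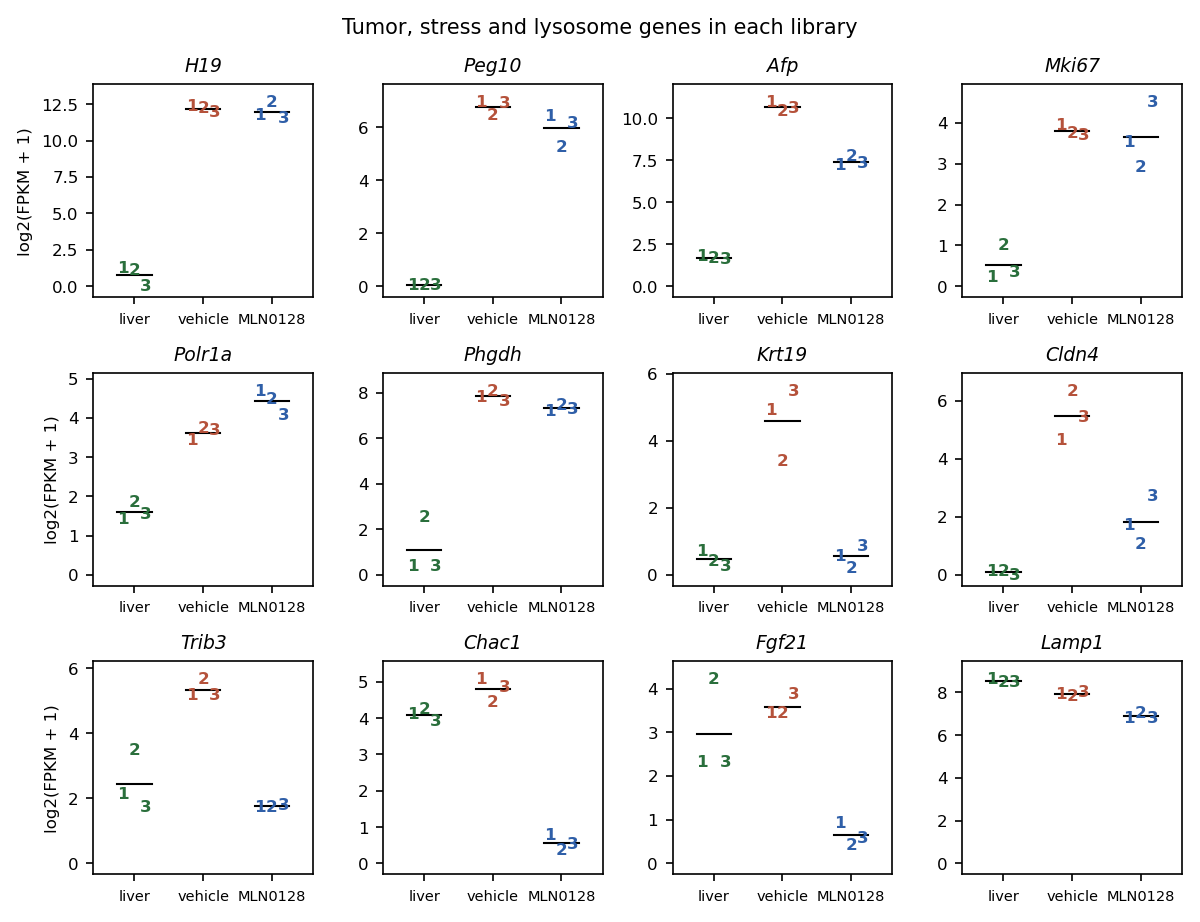
Level of 12 tumor, stress and lysosome genes in each library as log2(FPKM + 1), with digits for the replicate number and bars for the group mean of 3. H19, Peg10, Mki67, Polr1a and Phgdh stay far above liver with MLN0128, Afp lies between vehicle and liver, Krt19 and Trib3 overlap with liver, and Chac1, Fgf21 and Lamp1 lie under it.

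Another set of tumor genes came down under the drug. Of the 224 genes lower than vehicle, 135 had been at least 1 log2 unit above liver in vehicle, where their median was 1.97. With MLN0128 their median was 0.20, 17 were still higher than liver, 2 were lower and 116 passed in neither direction, which does not show that they equal liver. Afp, the albumin-like protein of fetal plasma, whose gene follows Alb on chromosome 5 at 90490737 to 90508907, lay between liver and vehicle. It was at 145, 210 and 159 FPKM with MLN0128, 1950, 1350 and 1520 with vehicle and 2.53, 2.23 and 2.05 in liver. It remained 75.5-fold above liver, while Alb on the same chromosome segment remained 80.9-fold below it. Spink1, a trypsin inhibitor also made by fetal liver, behaved alike at 29.9, 54.8 and 27.3, then 139, 102 and 119, then 0.220, 0.215 and 0.

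Biliary and progenitor genes were among them. Krt19, a keratin of bile duct cells, was at 0.493, 0.152 and 0.834 FPKM with MLN0128, 29.6, 9.49 and 44.0 with vehicle and 0.650, 0.342 and 0.207 in liver, so that drug and liver overlapped. Its log2 difference from vehicle was -4.05 (SE 0.420, limma's treat adjusted p = 0.000904). The tight junction gene Cldn4 was at 2.27, 1.09 and 5.50, then 24.1, 79.5 and 42.6, then 0.102, 0.0999 and 0, above liver in every library without passing the test (limma's treat adjusted p = 0.0884). Sox9, the ductal transcription factor, was at 0.102, 0.159 and 0.303, under its vehicle values of 1.90, 1.74 and 3.85. Of the 17 genes in the list, 6 were lower than vehicle, 8 had been higher than liver with vehicle and 3, Sox4, Anxa2 and Foxj1, were higher with MLN0128. A further 2 were lower than liver with MLN0128. Over all genes tested, 17.1% were higher and 20.1% lower. The list's median lay at -0.10 with MLN0128 and turned to 0.37 without the authors' scaling and to 0.40 with replicate 3 as the only MLN0128 library. Others of the 10 largest falls were Ckb, Ptgr1, Muc13 and Sprr1a. Muc13 reached the filter of 0.5 FPKM only in the vehicle libraries, at 13.0, 7.48 and 17.6. Its fall from vehicle was thus fixed by the filter and is a description only. Ptgr1, an NADPH-dependent reductase, was at 2.82, 3.54 and 4.42 with MLN0128, 54.1, 35.9 and 61.8 with vehicle and 3.39, 3.08 and 3.71 in liver. Sprr1a, a protein of the cornified envelope, was listed at 0 in all 3 livers and stood at 6.73, 1.46 and 6.07 with MLN0128 after 47.7, 46.4 and 77.5 with vehicle.

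The amino acid stress genes split under MLN0128, and promoters of some are shown because a motif recurs in them. Of the 33 tested genes of serine and one-carbon synthesis and of the amino acid stress response, 14 were higher than liver with MLN0128 and 5 lower (median 0.89), against 25 and 3 with vehicle (median 2.65). Against vehicle, 15 were lower. The motif TGATGNAA, a common form of the composite site of ATF4 and C/EBP proteins, was searched on both strands in the 250 bases before each RefSeq gene start (GRCm38.p6). It occurs in 7 of the 29 list members with a promoter sequence, or 24.1%, and in 3.91% of all 27025 genes with one. The list was gathered from known genes of this response, so its share does not test the motif. The 27025 are all genes with a promoter sequence, not only those measured here. Of the 15 genes lower than vehicle, 14 have a promoter sequence and 5 hold the motif. Stretches of 90 bases from these 5 and from Asns, which was not called against vehicle, follow on the gene's strand, with matches on either strand in capitals.
Chac1, chr2:119351009-119351098, plus strand: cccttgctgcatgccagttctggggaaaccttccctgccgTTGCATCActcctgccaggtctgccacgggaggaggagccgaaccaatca
Slc7a11, chr3:50443614-50443703, minus strand: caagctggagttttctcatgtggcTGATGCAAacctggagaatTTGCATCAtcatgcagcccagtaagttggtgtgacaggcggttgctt
Fgf21, chr7:45615580-45615669, minus strand: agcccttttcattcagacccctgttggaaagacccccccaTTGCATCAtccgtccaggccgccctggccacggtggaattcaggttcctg
Vldlr, chr19:27216780-27216869, plus strand: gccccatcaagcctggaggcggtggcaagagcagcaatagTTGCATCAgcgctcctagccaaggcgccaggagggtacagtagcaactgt
Nupr1, chr7:126625531-126625620, minus strand: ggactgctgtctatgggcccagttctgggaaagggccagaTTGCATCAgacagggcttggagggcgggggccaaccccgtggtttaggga
Asns, chr6:7693210-7693299, minus strand: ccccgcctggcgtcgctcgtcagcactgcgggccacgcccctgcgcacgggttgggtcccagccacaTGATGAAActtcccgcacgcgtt
The 5 genes lower than vehicle hold the form with C at the free base, as does Pycr1, the other list member with a match, which was not called against vehicle. Asns holds the form with A, and Slc7a11 has 2 matches. These matches describe the letters only and were not tested as binding sites.

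Values of these genes ranged from far under liver to far above it. Chac1, which degrades glutathione, was at 0.710, 0.287 and 0.460 FPKM with MLN0128, 32.5, 20.8 and 27.9 with vehicle and 16.4, 18.1 and 14.1 in liver. It was lower than both, with log2 differences of -4.23 from vehicle and -3.54 from liver (limma's treat adjusted p = 8.91e-06 and 5.53e-07). Fgf21, a stress hormone of the liver, was at 0.889, 0.345 and 0.484, then 9.91, 9.93 and 13.6, then 4, 17.5 and 4.03, likewise lower than both. Slc7a11, the cystine importer, was at 0.106, 0.0404 and 0.198 after 6.94, 11.4 and 13.3 with vehicle, and at most 0.0266 in liver. Trib3, a pseudokinase induced by ATF4, was at 2.30, 2.32 and 2.50, then 35.0, 49.5 and 35.2, then 3.40, 10.1 and 2.30. The one-carbon enzyme Mthfd2 fell to 3.95, 2.81 and 9.10 from 51.8, 60.2 and 48.4, against 1.60, 5.41 and 0.467 in liver. Serine synthesis genes remained above liver in their means but lay below vehicle. Phgdh, the entry enzyme, was at 147, 174 and 156 against 226, 269 and 197 with vehicle and 0.298, 4.78 and 0.308 in liver. Psat1 was at 61.9, 54.5 and 89.8 against 0.850, 9.78 and 0.428 in liver. Asns, which makes asparagine, was at 47.5, 47.5 and 54.0 against 18, 33.2 and 6.17 in liver (log2 difference 1.60, limma's treat adjusted p = 0.0419). Mean Psph, also of serine synthesis, was 3.39-fold its liver level. As ratios of mean FPKM to vehicle, Phgdh stood at 0.689, Psat1 at 0.337, Psph at 0.192 and Asns at 0.49. Normal liver replicate 2 was the highest of the 3 livers for Chac1, Fgf21, Trib3, Mthfd2, Phgdh, Psat1 and Asns. Compared with the tumors of mice given everolimus, the other drug of the study, 1 gene of all tested was higher with MLN0128 (0.0072%) and 5 were lower (0.036%), Chac1 and Adm2 of this list among them. With replicate 3 as the only MLN0128 library, 3 genes of the list were lower than vehicle, 12 higher than liver and 4 lower.

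Part of the lysosome genes lay under liver. Of 38 tested, 13 were lower than liver with MLN0128 and 2, Glb1 and Cd63, higher (median -0.56), against 2 lower and 8 higher with vehicle (median 0.10). The median turned to 0.46 and the lower count to 1 without the authors' scaling, and 7 were lower with replicate 3 as the only MLN0128 library. Against vehicle, 26 of the 38 had all 3 MLN0128 libraries below all 3 vehicle libraries, beside 23.4% of all genes tested, and 6 passed the treat test. Ctsl, a cysteine protease, was at 69.6, 86.2 and 89.1 FPKM with MLN0128, 346, 358 and 377 with vehicle and 105, 130 and 122 in liver, a log2 difference from vehicle of -2.14 (limma's treat adjusted p = 0.000235). Lamp1, an abundant membrane protein of lysosomes, was at 110, 132 and 110, then 243, 227 and 262, then 389, 363 and 361, so that every group lay apart. The E-box CACGTG, its own reverse complement, occurs in the 250 bases before the start of 11 of the 28 list members with a promoter sequence, or 39.3%, and of 6.86% of all genes. It also occurs in 22.2% of hepatocyte transcription factors and 22.7% of sterol and fatty acid synthesis genes, but in 0% of plasma protein genes. The lists were gathered by function, so these shares do not test the motif. The promoter of Lamp1 is shown because its 90 bases nearest the start on the plus strand hold 4 matches, in capitals.
Lamp1, chr8:13159071-13159160, plus strand: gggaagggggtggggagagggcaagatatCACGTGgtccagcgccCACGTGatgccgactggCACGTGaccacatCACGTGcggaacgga

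The injected genes could be followed only in part. Mcl1 (chromosome 3, 95658788 to 95663176), whose product blocks apoptosis, was at 1120, 992 and 461 FPKM with MLN0128, 211, 143 and 176 with vehicle and 50.2, 53.9 and 53.2 in liver. It was higher with MLN0128 than in liver and than with vehicle (log2 differences 3.91 and 2.19, limma's treat adjusted p = 1.73e-06 and 0.0109), with no overlap between groups. With replicate 3 as the only MLN0128 library, the log2 difference from vehicle was 1.40 and did not pass. Transcripts of the plasmid and of the mouse gene cannot be told apart in these values. Myc was lower than liver, at 0.907, 1.38 and 1.15 with MLN0128 and 0.807, 1.62 and 1.33 with vehicle against 12.2, 4.01 and 6.42, and how far transcripts of the c-MYC plasmid count toward it is not known.

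Cells other than hepatocytes also differed. Over all genes tested, 17.1% were higher and 20.1% lower than liver with MLN0128, and the counts below stand beside these shares. Of 19 Kupffer cell and macrophage genes 10 were lower than liver with MLN0128 and 5 with vehicle, and the summed level of the list was 125, 105 and 225 FPKM with MLN0128, 236, 227 and 313 with vehicle and 443, 557 and 510 in liver. Clec4f, the marker of mouse Kupffer cells, was at 5.60, 4.86 and 2.77 against 77.1, 82.2 and 83.6 in liver. The fall was not uniform: 14 of the 19 had a negative difference from liver and 5 a positive one, with 0 called higher. Cd68, another macrophage marker, had a mean 1.85-fold that of liver. Of 21 endothelial genes 15 were lower with MLN0128 and 14 with vehicle, led by Clec4g of the sinusoid lining, at 0.715, 0.877 and 0.391 against 26.5, 28 and 29.9. Of 19 stellate cell and fibroblast genes 8 were lower, such as Dcn (2.55, 3.52 and 4.13 against 43.0, 46.5 and 62.3). Another 3 were higher, a count near the share of all genes, such as Col1a1 (18.8, 11.1 and 23.0 against 0.480, 1.35 and 0.686) and Acta2 (13.9, 16.0 and 18.8 against 1.15, 0.917 and 1.08). Summed neutrophil markers (5 genes) were at 1.46, 2.04 and 6.75 with MLN0128 and 3.98, 18 and 3.26 in liver, and summed lymphocyte markers (6 genes) at 3.59, 2.79 and 11.5 against 15.2, 21.3 and 12.5. Of 6 erythroid genes 4 were lower and 1 higher. In replicate 3 alone, 7 macrophage, 15 endothelial and 6 stellate cell genes were lower than liver. Between MLN0128 and vehicle, 0 of the 76 members of these lists passed limma's treat test, 2 passed it on recovered reads with voom weights, and at an unadjusted moderated p under 0.05 there were 14 lower and 6 higher. Among the MLN0128 tumors the macrophage, neutrophil and lymphocyte sums were highest in replicate 3, and their part in the other results was not tested.

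The MLN0128 tumors differed among themselves. Pairs of MLN0128 libraries had r of 0.958 to 0.976 over the genes tested, which are not independent of each other, pairs of normal livers 0.983 to 0.985, pairs of vehicle-treated tumors 0.978 to 0.990 and pairs of everolimus-treated tumors 0.971 to 0.985, a range that overlaps with that of MLN0128. In the mean of log2(FPKM + 1) over each list, replicate 3 was the highest for mitosis (3.79, against 2.91 and 2.49) and the lowest for plasma proteins (5.80, against 6.10 and 6.61) and P450 genes (1.87, against 2.51 and 2.59). Female-biased liver genes split the same way, at 2.20 and 2.31 in replicates 1 and 2 and 1.02 in replicate 3, beside 1.23 to 1.58 with vehicle. The normal livers, which express the Y-linked genes, were at 2.37, 2.82 and 2.08, so this level does not mark female sex by itself. Of the 18 genes tested, 2 were higher than liver with MLN0128 and 4 lower (median -0.01). Cyp2c69, a female-biased P450, was at 5.19, 3.53 and 0 FPKM with MLN0128, 0.237, 0.0268 and 0.121 with vehicle and 25.5, 54.6 and 2.33 in liver. Sex chromosomes, tumor state and replicate coincide here and cannot be told apart. Male-biased genes did not follow, at 1.61 and 2.17 in replicates 1 and 2 and 2.19 in replicate 3.

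**Figure D4:**
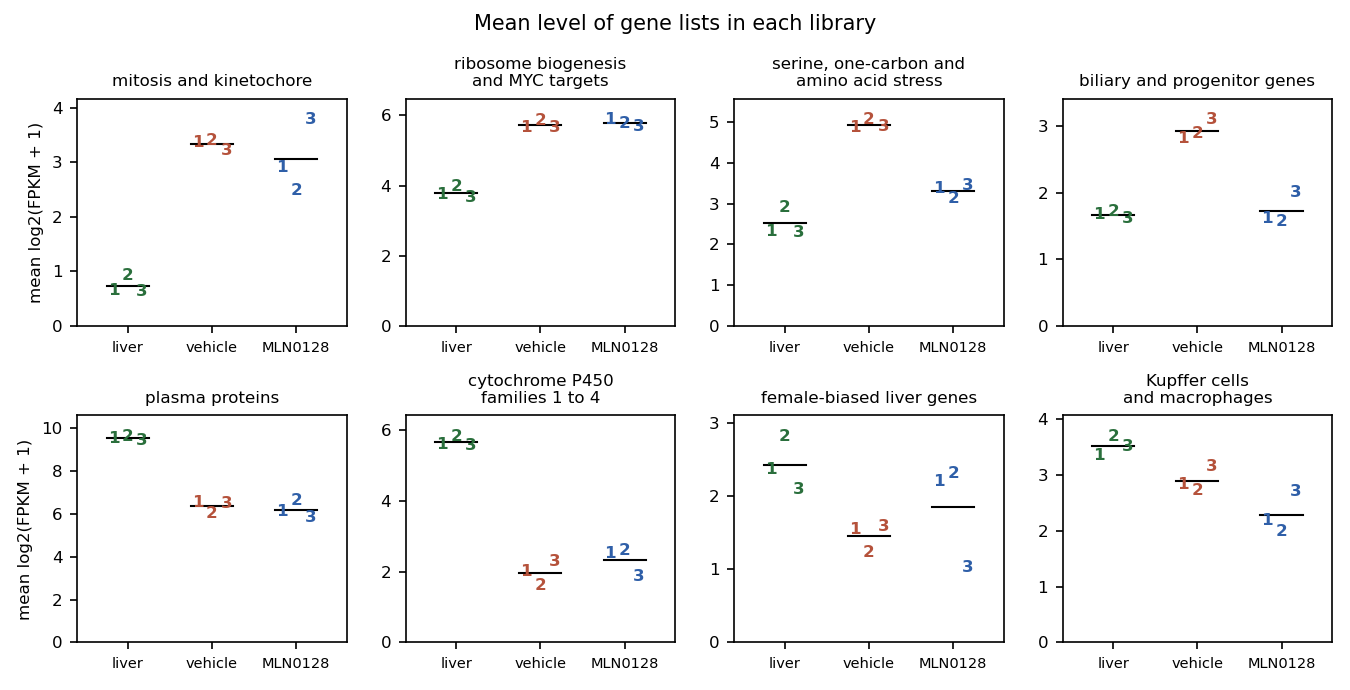
Mean log2(FPKM + 1) of 8 gene lists in each library, with digits for the replicate number and bars for the group mean of 3. MLN0128 replicate 3 lies above the other MLN0128 tumors for mitosis, biliary and Kupffer cell genes and below them for plasma protein, P450 and female-biased genes, while all 3 lie together for ribosome biogenesis.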

How the data were processed

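RNA of 12 mouse samples, 3 in each of 4 groups, was sequenced, and the authors deposited FPKM per gene in 1 table, from reads checked with FastQC 0.11.7 and the GRCm38 genome per the submitters' processing notes. The aligner is not given in the sources used here. The FPKM carry a normalization between libraries by the authors. Reads recovered from the FPKM steps lay within 0.1 of a whole number for 98.2% to 98.6% of values between 0.5 and 20 reads, and gave 17184619 to 25186191 reads per library. Their own fold changes were not used. Values were compared as log2(FPKM + 1) with a pseudocount of 1 in limma 3.58.1 (R 4.3.3), with all 12 libraries in 1 model, trended variance, a treat threshold of 1.5-fold and Benjamini-Hochberg adjustment over 13881 genes. Gene positions came from the reference annotation and promoters from RefSeq (GRCm38.p6). Tables and plots were made with Python 3.11.15, pandas 2.3.3 and matplotlib 3.10.9.

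The labels number 3 samples per group, which were taken as separate mice. The p-values rest on the spread between libraries of a group, pooled over all 4 groups. Members and lists were chosen with earlier results of these data known. Named genes were the 8 largest rises and falls from liver with groups apart, up to 10 liver genes that rose and the 10 tumor genes that fell most with the drug, the 3 most abundant genes and the extremes against vehicle of each list, and 12 defining genes. Other names were chosen after their values were seen. Alternatives were other pseudocounts, filters, scalings, models and tests, recovered reads with voom, a replicate block and leaving out libraries.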

Additional observations from a re-analysis of the deposited data

Results flagged for a closer look

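Chac1 and Adm2, a secreted peptide of the calcitonin family, differed between the drugs: against the same normal livers, MLN0128 minus everolimus came to -3.55 and -2.72 on the log2 scale, lower with MLN0128, each past limma's treat test of the difference itself. Xist, an X-linked RNA outside the tested autosomal genes, stood at 191 FPKM in MLN0128 replicate 1 and 155 FPKM in MLN0128 replicate 2, above every normal liver.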

How the results depend on the processing

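The calls against normal liver were 2377 higher and 2789 lower. They were 3951 higher with a moderated test and a fold change above 1.5, and 5705 higher and 1113 lower with plain library totals, where the calls of gene list members (533) were 474. Leaving out single libraries gave 2067 to 2379 higher and 2504 to 2769 lower. Against vehicle, the 64 higher genes became 209 with a pseudocount of 0.1, 122 with a pseudocount of 0.5, 1129 with the moderated test, 22 with only the groups compared in the model, 186 with plain library totals, 272 with voom on recovered reads and 3 with MLN0128 replicate 3 alone. Dropping 1 library at a time gave 15 to 122, the extremes being MLN0128 replicates 1 and 3. The 224 lower genes became 345 with a pseudocount of 0.1, 1540 with the moderated test, 140 with only the groups compared, 442 with voom, 21 with replicate 3 alone and 93 to 260 without 1 library each. The causes were not tested. With plain library totals 51.5% of the calls against vehicle were higher, beside 22.2%. Samples with the same replicate number did not deviate together (correlations of -0.163 to -0.124 between MLN0128 and normal liver), so the numbers do not pair them. A replicate block gave 2322 higher and 2704 lower against liver, and 38 higher and 172 lower against vehicle.

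With plain library totals, the difference from liver turned to 0.81 for Kiz and to 0.018 for Paics, and the median turned positive for lysosome (0.46), female-biased (0.50), biliary (0.37), lymphocyte (0.10) and stellate cell (0.55) genes. Of 162 named genes, 113 passed against liver, 91 of them under every alternative, and 32 passed against vehicle, 6 of them under every alternative.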
